A study of Mus musculus with 8 samples.

Results

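Dmd, Il1rapl1 and Pcdh11x are 3 of the longest genes of mouse chromosome X, and their replication timing was followed on the active (Xa) and the inactive (Xi) X chromosome of mouse embryonic fibroblasts (MEFs). The genes were taken because they are very long and tissue-restricted, with earlier results of these data known. They were represented by the 500 kb bins across them, 6 for Dmd, 3 for Il1rapl1 and 2 for Pcdh11x, or 11 of the 343 bins of the chromosome. All 11 bins carried a usable value on both alleles of both genotypes, as did 269 bins in all.

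The data are Repli-seq, in which DNA of cells sorted in S phase is compared with DNA of cells sorted in G1 phase, so that a locus copied early in S phase has more S-phase reads. The series holds 8 samples of genomic DNA from asynchronous female clonal MEFs, 4 of wild-type (wt) cells and 4 of cells with the MommeD1 mutation of SmcHD1 (SmcHD1 mut), and in each genotype the S-phase fraction and the G1-phase fraction have 2 samples apiece. Both lines came from F2 embryos of a cross of M. m. domesticus FVB with M. m. castaneus, and in both the castaneus X is taken as Xi and the FVB X as Xa. This follows the study's methods and the names of the tracks, since the sample descriptions write Xa for both alleles. Each genotype was 1 clone (Wt2A1 and Mut5A6), so genotype and clone cannot be told apart. The deposited tracks hold 1 value per bin, with the replicates combined and the read depth unknown, so no difference given here could be tested across cultures, and each is a description.

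The score is the authors' Z-score of the S/G1 ratio, and a higher score means earlier replication. Since the tracks have different spreads, each bin was also given its percentile in its track, from 0 for the latest bin to 100 for the earliest. How far a single bin can be trusted was judged from the SD of its departure from the mean of its neighbours. This noise SD includes true changes of timing between bins and leaves out any error that neighbouring bins, a culture or a clone share. On the Xa tracks this noise SD was 0.713 in wt and 0.744 in mut, and on the Xi tracks it was 0.631 in wt and 0.823 in mut.

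Mammalian chromosomes are copied in large domains, and domains that are gene-rich and transcribed tend to be copied early in S phase, whereas gene-poor, AT-rich and silent domains tend to be copied late. A very long gene that is silent in a cell type can make up much of such a late domain by itself. On Xi, most genes are silenced after Xist RNA coats the chromosome, and SmcHD1, a non-canonical SMC-family protein, helps to reinforce the silencing of many genes as the embryo develops.

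Dmd encodes dystrophin, which links the actin cytoskeleton to the membrane of muscle fibres. It spans 2257 kb of the plus strand at chrX:82948870-85206141 (mm10, GENCODE M21), almost all of it intron. Il1rapl1 encodes a synaptic membrane protein of the interleukin-1 receptor family, and mutations of its human counterpart are a cause of intellectual disability. It spans 1375 kb of the minus strand at chrX:86740870-88115645. Pcdh11x encodes a protocadherin, a cell adhesion protein made mainly in brain. It spans 620 kb of the plus strand at chrX:120290259-120910619. Dmd and Il1rapl1 are near neighbours, whereas Pcdh11x lies farther along the chromosome in a stretch that the study drew as poorly mappable. The files hold no RNA values, so whether these genes or cell markers were expressed in the MEFs was not measured.

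The annotated start sites of Dmd and Il1rapl1 fell in 3 different bins, and the sequences around them differ in CpG content, which sets apart the internal Dmd promoter. The RefSeq windows (GRCm38.p6, 250 bases before to 50 after the start) are shown 5′ to 3′ on the gene's strand with every CG in capitals. CG reads the same on both strands.

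Dmd, full-length start, chrX:82948620-82948919, plus strand: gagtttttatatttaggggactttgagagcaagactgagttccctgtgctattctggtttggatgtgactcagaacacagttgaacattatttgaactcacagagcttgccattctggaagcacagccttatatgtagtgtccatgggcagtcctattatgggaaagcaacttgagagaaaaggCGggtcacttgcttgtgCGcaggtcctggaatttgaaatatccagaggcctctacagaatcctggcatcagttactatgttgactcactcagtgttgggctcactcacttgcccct
Dmd, internal start, chrX:85048045-85048344, plus strand: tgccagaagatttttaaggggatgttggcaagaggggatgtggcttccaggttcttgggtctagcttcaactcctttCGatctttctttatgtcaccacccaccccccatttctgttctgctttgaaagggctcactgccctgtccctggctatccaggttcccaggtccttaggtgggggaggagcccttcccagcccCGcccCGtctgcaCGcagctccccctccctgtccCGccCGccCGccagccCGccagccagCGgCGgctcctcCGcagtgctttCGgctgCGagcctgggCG
Il1rapl1, chrX:88115899-88116198, minus strand: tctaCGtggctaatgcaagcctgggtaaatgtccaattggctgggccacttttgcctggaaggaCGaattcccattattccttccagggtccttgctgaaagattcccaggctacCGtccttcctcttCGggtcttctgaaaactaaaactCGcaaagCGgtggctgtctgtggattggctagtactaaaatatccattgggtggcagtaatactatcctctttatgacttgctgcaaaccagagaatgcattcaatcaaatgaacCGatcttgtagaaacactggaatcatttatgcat

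The full-length Dmd window held 2 CG, and 85.9% of 32851 RefSeq promoter windows of this length held at least as many. The internal Dmd window held 14 CG, a number reached by 36.3% of the windows. Transcripts from this internal start give a short carboxy-terminal form of dystrophin. The Il1rapl1 window held 7 CG, a number reached by 52.1%. The full-length start of Dmd lies in its first bin, of which 51.1 kb is in the gene, and the internal start lies in its last. The start of Il1rapl1 lies just beyond its 3 bins, in a bin that shares 116 kb with the gene.

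All 11 bins were AT-rich. Their G+C share had a median of 36.2% and ranged from 34.9% to 38.9%, against a median of 39.2% over the 325 other bins with sequence. The 4 lowest G+C shares among all 336 such bins belonged to these genes, with 34.9% in the third Dmd bin, 35.0% and 35.3% in the bins of Il1rapl1 nearest its start and 35.1% in the second Pcdh11x bin. The lowest value of any other bin was 35.7%. Of the 84 bins of lowest G+C share, 10 were member bins. The share of the bin masked as repeats had a median of 40.2% over the members, against 51.4% over the 74 other bins in that low G+C group.

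On wt Xa, all 3 genes were later than the middle of the chromosome. All 11 bins ranked below the median, where 50.0% of the 292 usable bins lie by construction, and 1 of 11 lay in the latest 25.0%. That second count was not stable, with 4 of 11 after a running mean of 3 bins, when the Pcdh11x median went from percentile 26.5 to 15.8, and 0 of the 8 bins at least 50% inside a gene. The member median was percentile 33.0. It was 30.6 in the 121 other bins with 0 or 1 protein-coding gene start, 24.1 in the 63 other bins of lowest G+C share and 68.6 in the 160 other bins with 2 or more starts. The long genes thus had levels close to those of other gene-poor bins.

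Along Dmd from its start to its end, the wt Xa scores were −2.02, −0.973, −0.721, −0.983, −0.862 and −0.571. The first bin, most of which lies upstream of the gene, was the latest at percentile 3.44, and the last bin, with the internal start, was the earliest at 45.7. Of this last bin, 206 kb is in the gene and the rest lies beyond its 3′ end. The mean of the last 3 bins was 0.433 above that of the first 3, less than the noise SD of such a difference, 0.582. In unsplit wt reads, on their own scale, the same difference was 0.0805, above its noise SD of 0.0363. The latest bin there was not the first, at percentile 32.5, but the second, at 11.6. Beyond the 3′ end, the next bin scored 0.664, percentile 74.6. That bin holds Tab3, an adaptor of inflammatory signalling, and Gk, which encodes glycerol kinase.

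Il1rapl1 was even along its length on wt Xa, with scores of −0.667, −0.730 and −0.659 in the direction of transcription. These 3 values had an SD of 0.0386, far below the noise of a single bin. The bin with its start scored −1.14, percentile 24.7, so that the body ranked earlier than the start bin by less than the noise of a bin. Pcdh11x scored −0.988 and −1.12, percentiles 27.5 and 25.4. The 4 bins that follow Pcdh11x were later still, between percentiles 4.12 and 9.62 on wt Xa.

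**Figure D1:**
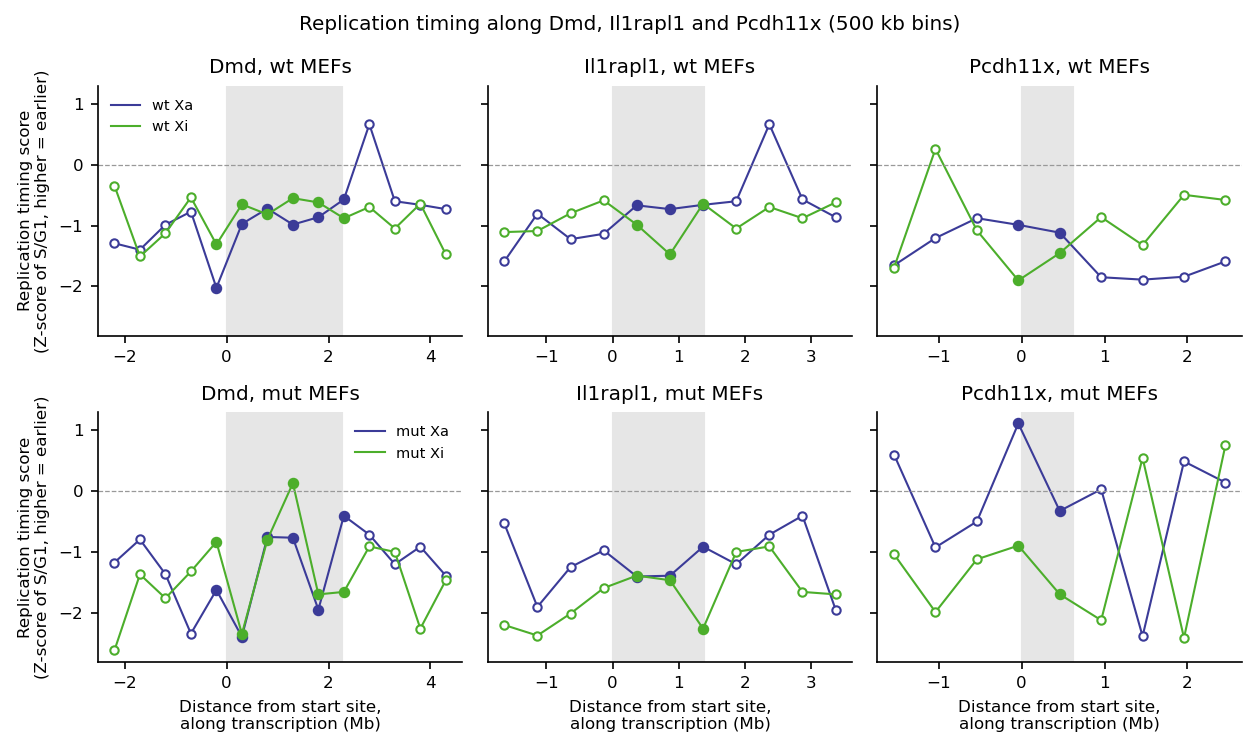
Replication timing score (y axis, Z-score of S/G1, higher is earlier) of Xa and Xi in wt (top) and mut (bottom) MEFs against the distance of the bin centre from the start site along transcription (x axis, Mb), with 1 pooled value per bin and no error bars. Filled points are the member bins of the panel's gene, open points up to 4 bins on each side and grey the gene body. For Dmd and Il1rapl1, open points include member bins of the other gene. In wt, Dmd stays between −2.02 and −0.571 on Xa and the bin beyond its end stands at 0.664.

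On wt Xi, the genes parted. Of the 11 bins, 5 ranked below the median of the track, against 50.0% of all usable bins, and these were 1 of 6 Dmd bins, 2 of 3 Il1rapl1 bins and both Pcdh11x bins. Dmd scored −1.31, −0.651, −0.816, −0.549, −0.620 and −0.880 from start to end, and its median lay at percentile 68.0 of wt Xi. Il1rapl1 scored −0.986, −1.47 and −0.641 in the direction of transcription, with a median at percentile 49.5. Pcdh11x scored −1.90 and −1.45, with percentiles of 5.76 and 19.0. The wt Xi scores of the whole chromosome were narrow, with an SD of 0.734 over bins against 0.631 for the noise, so a high percentile there stands for a small difference in score.

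Between the alleles in wt, Dmd and Il1rapl1 had a smaller mean difference than the chromosome as a whole, and Pcdh11x one close to it. Xa scored above Xi in 6 of 11 bins, against 75.4% of the 285 bins with both alleles. For Dmd, Xa was above Xi in 2 of 6 bins and the mean difference, Xa minus Xi, was −0.218 ± 0.368 (SD over 6 bins). It was 0.348 ± 0.381 over the 3 bins of Il1rapl1 and 0.624 ± 0.409 over the 2 bins of Pcdh11x. Over all bins it averaged 0.717. No single member bin differed between alleles by more than 2 times the noise SD of 0.952, whereas 52 of 285 bins in all did. Other gene-poor bins also had a small difference, with a median of 0.206 over 118 bins, against 1.15 over 156 bins with 2 or more gene starts and 0.0950 over the 11 members. When each track was instead centred on its median and divided by its median absolute deviation, Xa lay above Xi in 3 of 11 bins, and the mean difference, in units of that deviation, was −1.31 for Dmd, −0.238 for Il1rapl1 and 1.20 for Pcdh11x. The size of the difference and, for Il1rapl1, its sign thus depend on how the tracks are scaled.

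**Figure D2:**
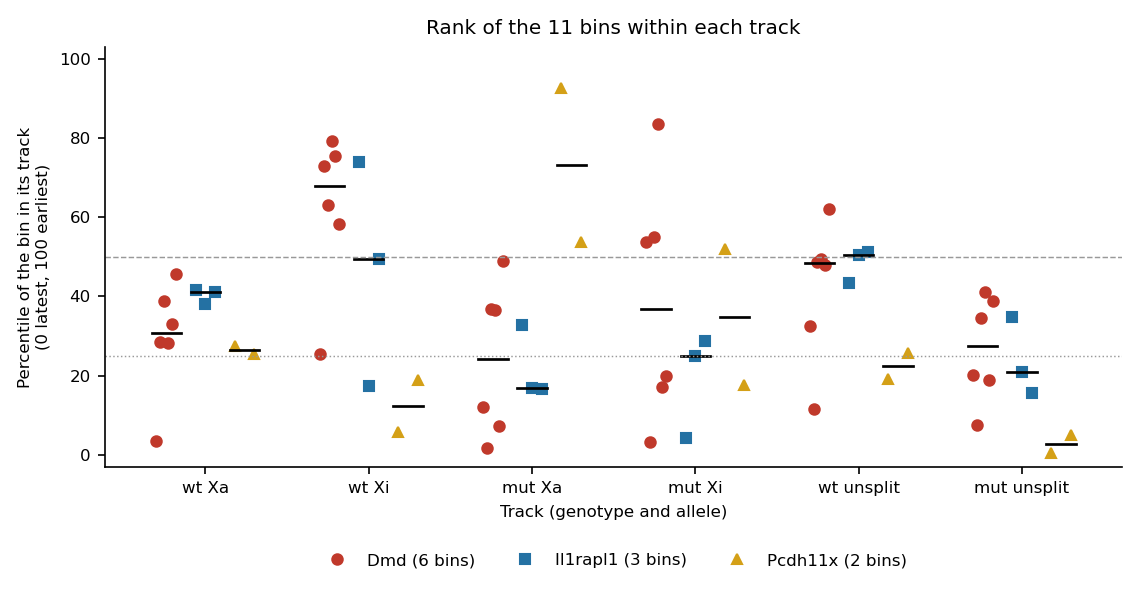
Percentile (y axis, 0 latest to 100 earliest) of each of the 11 bins within each of the 6 tracks (x axis), with the gene given by colour and shape and its median by a black bar. The dashed and dotted lines mark percentiles 50 and 25. All 11 bins lie below 50 on wt Xa, and the 2 Pcdh11x bins lie above 50 on mut Xa but below 10 in mut unsplit reads.

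In SmcHD1 mut MEFs, the allele scores of Dmd varied more along the gene than in wt. On mut Xa, its scores from start to end were −1.63, −2.40, −0.758, −0.770, −1.95 and −0.409. On mut Xi, they were −0.838, −2.35, −0.804, 0.126, −1.70 and −1.66. The second and the fifth bin were late on both alleles, at percentiles 1.72 and 7.24 of mut Xa and 3.16 and 17.2 of mut Xi. In wt the same bins had been at 28.5 and 33.0 on Xa and at 72.9 and 75.6 on Xi. The SD over the 6 bins was 0.788 on mut Xa and 0.875 on mut Xi, against 0.515 and 0.277 in wt. The alleles of a genotype come from the same libraries, and the noise of neighbouring bins near Dmd was also larger in mut, at 0.555 for Xa and 0.651 for Xi against 0.430 and 0.395 in wt. In the reads not split by allele the order was the other way, with an SD over the 6 bins of 0.0622 in wt and 0.0485 in mut. The part of noise in the allele profiles was not tested.

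From wt to mut, the Xi scores of these genes had no common direction. The Xi score was higher in mut in 5 of 11 bins, against 50.5% of the 281 bins with both values. For Dmd the mean change was −0.400 ± 0.936 (SD over 6 bins), with 3 bins higher and 3 lower. For Il1rapl1 it was −0.675 ± 0.846 over 3 bins, and the bin at its 3′ end went from −0.641 to −2.26. For Pcdh11x it was 0.377 ± 0.883, with −1.90 in wt and −0.900 in mut for the first bin and a change of −0.248 in the second. No member bin changed on Xi by more than 2 times the noise SD of 1.04, and 22 of 281 bins in all did. Near the genes this noise SD was 0.761 for Dmd, 0.698 for Il1rapl1 and 1.81 for Pcdh11x. Against it, 1 Dmd bin, the second, passed 2 times the SD with a change of −1.70, as did the 3′ bin of Il1rapl1 with −1.62. Of the 8 bins beside Dmd, 2 passed it, the same Il1rapl1 bin and a bin upstream of Dmd with −2.28. Beside Il1rapl1 0 of 8 bins did, and beside Pcdh11x 0 of 7. By rank, 6 of 11 bins lay in the latest 25% of mut Xi (background 25.2%), made up of 3 of Dmd, 2 of Il1rapl1 and 1 of Pcdh11x, and the member median was percentile 24.9 against 39.1 in 118 other gene-poor bins and 30.5 in the 59 other bins of lowest G+C share, of which 25 lay in the latest 25%.

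On Xa there was no common direction either. The score was higher in mut in 5 of 11 bins, against 43.0% of the 279 bins with both values, and the mean changes were −0.297 ± 0.764 for Dmd, −0.554 ± 0.259 for Il1rapl1 and 1.44 ± 0.925 for Pcdh11x. For Dmd 3 bins were higher and 3 lower, and the median change was 0.0627, with the opposite sign to the mean. All 3 Il1rapl1 bins were lower, to −1.41, −1.39 and −0.918 in the direction of transcription, though each by less than the noise SD of 1.03. The second Dmd bin changed by −1.42 on Xa, just past 2 times the noise SD near the gene, 1.41, but not past 2 times that of the track. Of the 8 bins beside Dmd, 1 also passed the limit near the gene, with −1.57. Of the 11 bins, 5 lay in the latest 25% of mut Xa (background 25.1%), 3 of Dmd and 2 of Il1rapl1. So did 28 of the 64 other bins of lowest G+C share and 48 of the 120 other bins with 0 or 1 gene start. Between the alleles of mut, Xa scored above Xi in 6 of 11 bins, against 68.8% of the 276 bins with both values.

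Pcdh11x was the one of the 3 genes with a higher mean score on mut Xa than on wt Xa. Its first bin scored 1.11, percentile 92.8, after −0.988 in wt, a change of 2.09. Most of this bin lies upstream of the gene, which takes up 210 kb of it. Its second bin, mostly inside the gene, scored −0.330 in mut Xa, percentile 53.8, after −1.12 in wt, a change of 0.786. The reads not split by allele went the other way at the same place, with the first bin at percentile 0.597 in mut. The allele scores around Pcdh11x were rough in mut, with a noise SD near the gene of 1.35 on Xa and 1.58 on Xi, against 0.359 and 0.885 in wt. For unsplit mut reads it was 0.0487, on another scale, where the SD over all bins was 0.168 against 1.06 for mut Xa. Among its 8 flanking bins 1 had no usable allele value in wt Xa. The higher mut Xa score reached beyond the gene. Of the 7 flanking bins with a value in both genotypes, 6 scored higher in mut on Xa, by up to 2.32. Neither the members nor the flanking bins changed on Xa by more than 2 times the noise SD near the gene, which comes to 2.80, although 1 member bin and 2 flanking bins passed 2 times the SD over the whole track. The part of mappability in these scores was not tested.

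The reads not split by allele gave the smoothest profiles, with a noise SD of 0.0444 in wt and 0.0553 in mut on the authors' scale, which is not that of the allele tracks. These reads combine Xa and Xi, and the copy number of each in a clone was not examined here. In them, all 3 genes scored lower in mut than in wt. The score was lower in 11 of 11 bins, against 50.9% of all 336 bins, and the percentile was lower in 11 of 11, against 52.1%. In wt, Dmd scored −0.0776, −0.130, −0.0142, −0.0112, −0.0193 and 0.0501 from start to end. In mut, it scored −0.140, −0.192, −0.0938, −0.0636, −0.146 and −0.0797. The whole gene lay lower in mut and the last bin, earliest in wt at percentile 62.1, went to 38.8.

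For Il1rapl1 the unsplit scores in the direction of transcription were −0.00423, −0.00951 and −0.0424 in wt and −0.154, −0.139 and −0.0927 in mut. The bin nearest the start went from percentile 51.3 to 15.5, the widest difference in rank among the 11. For Pcdh11x they were −0.105 and −0.0894 in wt and −0.247 and −0.204 in mut. The mean change was −0.0856 ± 0.0344 for Dmd, −0.110 ± 0.0527 for Il1rapl1 and −0.128 ± 0.0195 for Pcdh11x (SD over bins). Of the single bins, 1 of 11 exceeded 2 times the noise of a bin, 0.0709, as did 21 of all 336. In the latest 25% of the unsplit track lay 2 of 11 bins in wt and 7 of 11 in mut (background 25.0% in each). Of the 74 other bins of lowest G+C share, 30 lay there in wt and 40 in mut.

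**Figure D3:**
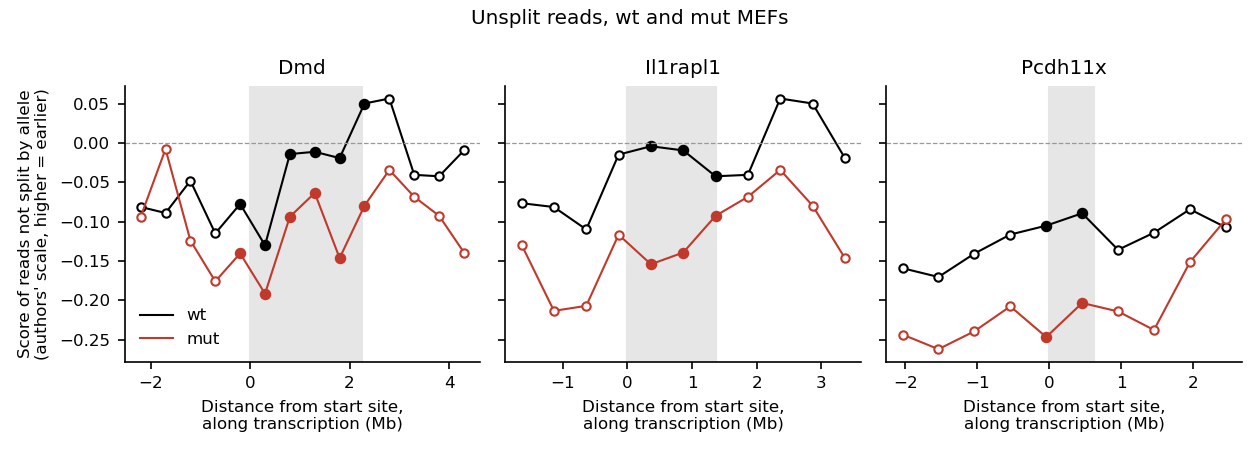
Score of reads not split by allele (y axis, authors' scale, higher is earlier) in wt (black) and mut (red) against the distance of the bin centre from the start site along transcription (x axis, Mb), with 1 pooled value per bin and no error bars. Filled points are member bins, open points flanking bins and grey the gene body. The mut value lies below the wt value in all 11 member bins, as in 16 of the 18 flanking bins.

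The lower unsplit score was not confined to the genes. Of the 18 flanking bins, 16 were also lower in mut, with a median change of −0.0814 against −0.114 over the members. The 2 exceptions lay upstream of Dmd, in the bin of Tmem47, with 0.0813, and beyond Pcdh11x, with 0.0102. Among the 74 other bins of lowest G+C share, 64 were lower in mut and the median change was −0.0548. Among the 182 other bins with 2 or more gene starts, 66 were lower and the median change was 0.0334. Across all 336 bins the G+C share went with the unsplit score with Spearman's rho of 0.519 in wt and 0.710 in mut, neighbouring bins of 1 chromosome and the same libraries being compared. The spread of the unsplit score over bins was 0.125 in wt and 0.168 in mut. The part of base composition, clone or genotype in the lower score was not tested. In the allele tracks, rho with G+C was 0.514 over 292 bins of wt Xa, 0.0649 over 296 of wt Xi, 0.503 over 291 of mut Xa and 0.377 over 286 of mut Xi.

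The other very long genes of the chromosome show where these 3 fall. GENCODE M21 has 12 protein-coding genes of 500 kb or more on chromosome X, and the mean percentile of every usable bin that overlaps a gene was taken on wt Xa. Fgf13, a fibroblast growth factor homologue that acts inside neurons, was the latest at 14.1. Pcdh11x came next at 26.5, then Dmd at 29.6, Il1rapl2 at 34.8 and Il1rapl1 at 36.4. Il1rapl1 and its paralogue Il1rapl2, which spans 1276 kb, thus lay side by side. Gm15155 followed at 47.9, Tenm1 at 50.0, Dach2 at 52.2, Aff2 at 56.7 and Frmpd4 at 62.7. Arhgap6 was at 81.1 and Diaph2, an actin-regulating formin, at 96.6 on its single usable bin. The bins of Dmd alone ranged from 3.44 to 45.7, so the order of Pcdh11x, Dmd, Il1rapl2 and Il1rapl1 does not exceed the spread along a gene. The 2 bins of Dach2 were at 4.47 and 100 and those of Tenm1 at 36.8 and 63.2. The places of these 2 genes in the order are thus uncertain.

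**Figure D4:**
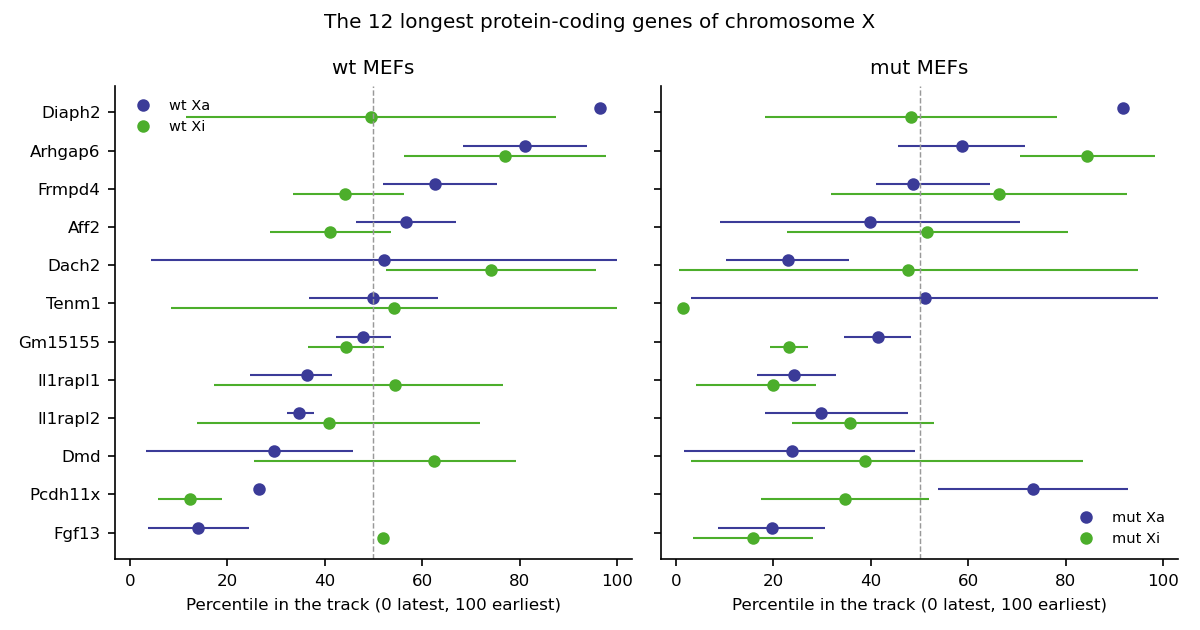
Mean percentile (x axis, 0 latest to 100 earliest) on Xa and Xi of wt (left) and mut (right) MEFs for the 12 protein-coding genes of chromosome X of at least 500 kb, ordered by wt Xa (y axis), with lines from the lowest to the highest of the usable bins that overlap each gene. Pcdh11x, Dmd and Il1rapl1 are at 26.5, 29.6 and 36.4 on wt Xa, among the 5 latest.

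Tissue-restricted genes as a class were spread over the wt Xa track. Of 17 other X-linked genes known mainly from neurons and other specialised cells, 5 lay below percentile 50 and the median was 62.5. Of 12 widely expressed genes, 11 had a usable bin, 1 of them (Rbmx, an RNA-binding protein, at 10.3) lay below 50 and the median was 85.6. The lists are not independent of each other, since Uba1 and Cdk16 of the second and Syn1 of the first lie in the same bin. Hprt and Pgk1, the housekeeping genes of purine salvage and glycolysis, were at 80.9 and 93.1. Over 855 protein-coding genes with a value, 217 lay below 50 and the median was 71.8. Syp and Syn1, synaptic vesicle genes that lie among many others, were at 97.9 and 91.4.

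Likeness to each gene was measured as the distance between the mean percentiles in the 4 allele tracks, over 246 sets of bins that hold other genes. Nearest to Dmd was Arhgap36, a regulator of hedgehog signalling, at a distance of 8.81. The median distance from Dmd was 64.7. Nearest to Il1rapl1 were 1700020N15Rik at 16.3, Ptchd1 at 18.9 and Il1rapl2 at 19.9. Nearest to Pcdh11x were Scml2 with Gm15262 at 22.1, Fam199x with Esx1 at 24.4 and Cylc1 with Gm10112 at 25.0. These distances rest on 1 to 3 bins for each nearest gene, and describe similar ranks in these 4 tracks.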

How the data were processed

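Repli-seq scores of chromosome X were analysed in wt and SmcHD1 mut MEFs, for reads assigned to Xa (FVB), to Xi (castaneus) and for reads not split by allele. Per the labels and the study's methods, the authors mapped reads with Bowtie2 to mm10, split them by SNP, counted them in 500 kb bins and deposited 1 score per bin and track, a Z-score of the S/G1 ratio. The bins behind the Z-score, the transformation of the unsplit score and the version of Bowtie2 are not given in the sources used here. Replicates are combined and no counts were used, so no test, interval or limit of detection could be computed.

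Allele scores repeated at least 20 times in a track or outside −3 to 3 were left out, as were unsplit scores of exactly 0. This left 292 bins of wt Xa, 296 of wt Xi, 291 of mut Xa, 286 of mut Xi and 336 of each unsplit track. The noise SD is the SD of a bin's departure from the mean of its neighbours, multiplied by the square root of 2/3. The noise of a difference combines both tracks. Error between cultures is not part of it.

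The genes, lists and comparison groups were chosen with earlier results of these data known. Genes named are the 3 members, protein-coding genes of at least 500 kb, genes within 4 bins of a member, the 3 nearest in rank (for Dmd, those after the first are not reported here) and 2 lists of 17 tissue-restricted and 12 widely expressed genes. Annotation came from GENCODE M21 and sequences from RefSeq GRCm38.p6, which has the chromosome X length of mm10. Steps were tested on simulated data. Python 3.11.15, numpy 2.4.6, pandas 2.3.3, scipy 1.17.1 and matplotlib 3.10.9 were used.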

Additional observations from a re-analysis of the deposited data

How the results depend on the processing

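Results were recomputed under 9 alternative settings. A value was taken to have moved when it shifted by more than the SD over the gene's bins, or, for a count, by more than 1.5 times. Of 223 values, 15 were score differences rescaled by the median absolute deviation, which are in another unit and were compared by sign only. Of the others, 193 stayed within this spread and 15 moved. With a running mean of 3 bins, the median percentile of Il1rapl1 went to 11.2 on mut Xi, 34.4 on wt Xa and 44.8 in wt unsplit reads, and that of Pcdh11x to 15.8 on wt Xa and 16.3 in wt unsplit reads. With the repeated constants kept, Il1rapl1 was at 46.1 and Pcdh11x at 32.5 on wt Xa. Pcdh11x was at 28.8 on wt Xa with no limits on the score and at 24.7 when ranked among bins with both neighbours kept. The number of bins in the latest 25% of wt Xa was 1, and it was 4 with the running mean, 2 when ranked among bins kept in all 4 allele tracks or with both neighbours kept, 2 with every bin that overlaps a gene and 0 with the 8 bins at least 50% inside one. The number with Xa above Xi in wt fell from 6 to 3 after rescaling by the median absolute deviation. The causes were not tested.

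The count below the median of wt Xa was 11 and stayed between 10 and 11 of the 11 bins, and the count with a lower unsplit score in mut was 11 of 11 also with the running mean and after rescaling, an alternative chosen after seeing the data. The count below the median was added after seeing the data. The sign changed for 3 of 84 score differences, all smaller than their spread. The change of Dmd on Xa was 0.0627 by the median, Xa minus Xi of Il1rapl1 in wt was −0.238 after rescaling, and the change of Pcdh11x on Xi was −0.248 in the 1 bin mostly inside the gene.

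No paired analysis was possible because each track merges its replicates, which also kept single replicates from being left out. Depth is unknown, and with 1 clone per genotype no difference between wt and mut can be told apart from a difference between clones.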
